A study of Homo sapiens with 6 samples.

Results

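The tricarboxylic acid cycle enzymes described here are 9 genes chosen by name: CS, IDH1, IDH2, IDH3A, OGDH, SUCLG1, FH, MDH1 and MDH2. All 9 were found in the deposited table, which lists 15496 genes. IDH1 and MDH1 encode cytosolic enzymes, so the set holds some of the mitochondrial cycle's genes and 2 cytosolic counterparts. HEK293, a human embryonic kidney line cultured in RPMI medium with serum, received either compound B23, a quinolinol according to the labels, or its solvent DMSO. Neither dose nor duration is stated in the labels. Polyadenylated RNA was sequenced from 3 libraries of B23-treated cells and 3 libraries of DMSO control cells. The labels number the replicates without calling them separate cultures, and the p-values below rest on library-to-library spread that could be purely technical.

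The cycle oxidises acetyl groups in the mitochondrial matrix and passes electrons to the respiratory chain. Citrate synthase starts it by joining acetyl-CoA to oxaloacetate, and malate dehydrogenase closes it by remaking oxaloacetate. Between them, isocitrate dehydrogenases make 2-oxoglutarate, which the 2-oxoglutarate dehydrogenase complex turns into succinyl-CoA. Succinyl-CoA synthetase, succinate dehydrogenase and fumarase then lead to malate. The intermediate 2-oxoglutarate is also the co-substrate of the oxygen-dependent dioxygenases that hydroxylate hypoxia-inducible factors, and succinate and fumarate can inhibit these enzymes. Kidney and other oxidative tissues are rich in cycle enzymes, while proliferating cell lines also use the cycle to supply building blocks such as citrate.

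The libraries held 40950318 to 45319519 recovered reads in B23 and 45732612 to 47444126 in DMSO, counted over the listed genes. A member gene had between 799 and 13810 of these reads in a library. Replicates of one group correlated across genes with r of 0.998 to 0.999, where genes are not independent replicates. All 9 genes fixed for the HEK293 line were detected, with a summed level of 1261 to 1341 CPM (counts scaled to a common library size) in B23 and 848 to 889 CPM in DMSO. Of other cell types, 2 of 7 fibroblast genes were listed with a sum of 11.5 to 13.4 CPM in B23 and 9.07 to 9.86 CPM in DMSO. Only 1 of 6 blood cell genes and 1 of 4 liver cell genes were listed, the liver gene at no more than 0.0164 CPM. The blood cell gene was at 0.177 to 0.304 CPM in B23 and 1.05 to 1.30 CPM in DMSO. In bulk RNA, fewer cells of a type and less RNA per cell cannot be told apart.

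Most cycle enzyme transcripts were higher after B23, with OGDH and IDH1 as the exceptions. Of the 9 members, 7 were called higher and 2 lower at an adjusted p under 0.05 in limma, a linear model fitted to log2(CPM + 0.5) of all genes. With quantile normalization, which gives every library the same distribution of values, the counts were 4 higher and 5 lower, because CS, MDH1 and MDH2 turned negative. With that setting 12905 of all 14792 genes tested were called, and lower genes made up 51.6% of those calls. Over the 14792 genes tested, 88.6% were called in either direction, 39.6% higher and 49% lower, so being called at all was common in this comparison. Lower genes made up 55.3% of the calls on the deposited scale, 67.6% with scaling to the listed-gene total, which sets that sum equal in all libraries, and 49.6% with median-of-ratios scaling. IDH3A, SUCLG1 and FH, 3 of 9 members, were higher by at least 1 on the log2 scale, a size reached upward by 9.65% of genes tested. OGDH, 1 of 9 members, was lower by at least 1, as 15.8% of genes tested were. With listed-gene total scaling 0 of 9 members were higher by at least 1, against 5.98% of genes tested, and with quantile normalization 0 of 9, against 10.3%. Lower by at least 1 were 2 of 9 with listed-gene total scaling, against 22.9%, and 1 of 9 with quantile normalization, against 9.78%. The median log2 difference of the members was 0.37, and that of all genes tested was -0.10. For each of the 9 members the libraries of the B23 and DMSO groups did not overlap, which was also true of 88.9% of genes tested.

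**Figure D1:**
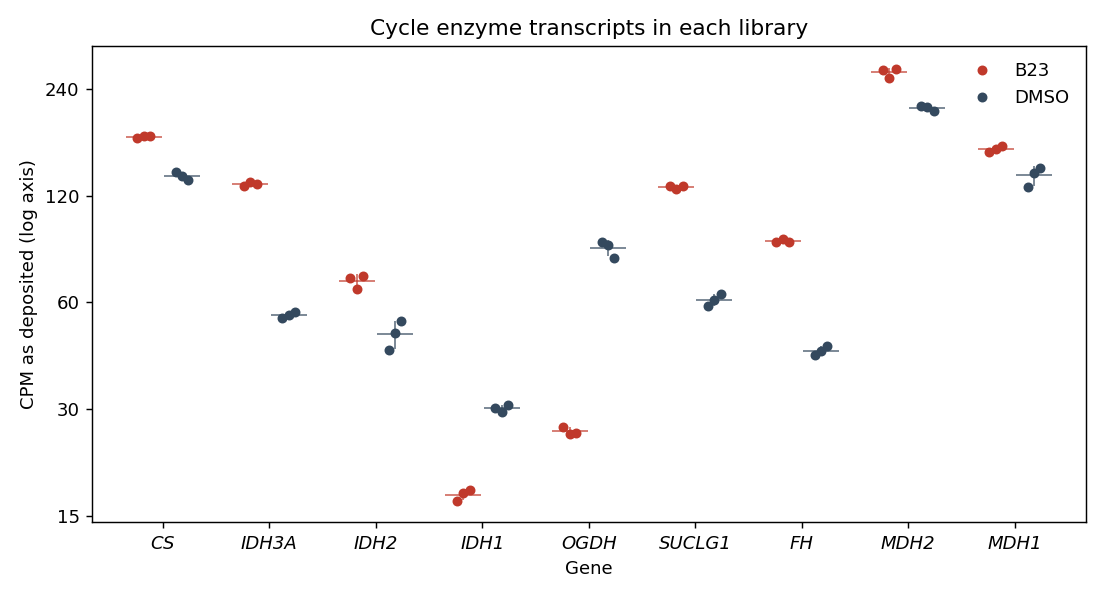
CPM as deposited, on a log axis, of the 9 cycle enzymes in each of the 3 B23 libraries (left of each pair) and the 3 DMSO libraries (right), with the mean as a horizontal line and the SD as a vertical bar. On this scale B23 libraries lie above DMSO libraries for 7 genes and below them for IDH1 and OGDH; with quantile normalization CS, MDH1 and MDH2 turn to -0.095, -0.20 and -0.21 on the log2 scale.

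Citrate synthase was modestly higher. CS, on chromosome 12 from 56271699 to 56300392 in GRCh38, had 175, 177 and 177 CPM in the B23 libraries, against 140.4, 137 and 133 CPM in the DMSO libraries. Its mean was 176.3 ± 1.27 CPM in B23 and 136.6 ± 3.91 CPM in DMSO (SD, n = 3 each). The fitted log2 difference was 0.37 (SE 0.033, limma adjusted p = 2.03e-10). CS turned to -0.095 with quantile normalization, so its direction depends on the scaling. It shares exons on the same strand with AC073896.1, whose mean level was 40.0% of that of CS. AC073896.1 was at 56.5 ± 1.85 CPM in B23 and 68.5 ± 3.02 CPM in DMSO, so how reads of the shared exons were divided between the pair matters here and was not tested.

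Isocitrate dehydrogenases differed between the mitochondrial and cytosolic forms. IDH3A, which encodes the catalytic alpha subunit of the NAD-dependent mitochondrial enzyme, lies on chromosome 15 from 78131498 to 78171949. It had 127, 131 and 129 CPM in the B23 libraries, against 54.2, 55.4 and 56.5 CPM in the DMSO libraries. That is 2.34-fold by mean CPM, or 1.22 on the log2 scale (SE 0.034, limma adjusted p = 2.46e-20), the largest rise among the 9 members. CIB2, on the opposite strand, overlaps IDH3A and was lower, at 10.7 ± 0.925 CPM in B23 and 16.8 ± 0.376 CPM in DMSO. IDH2, the NADP-dependent mitochondrial enzyme on chromosome 15 from 90083045 to 90102504, had 70.1, 65.6 and 71.2 CPM in B23, against 44.1, 49.3 and 53.0 CPM in DMSO. Its 3 DMSO libraries were more spread than those of IDH3A, and the gap to the lowest B23 library remained. IDH2 rose by 0.50 on the log2 scale (SE 0.055, adjusted p = 2.42e-07 in limma).

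The cytosolic isoenzyme went the other way. IDH1, the NADP-dependent enzyme of cytosol and peroxisomes on chromosome 2 from 208236227 to 208266074, had 16.5, 17.4 and 17.7 CPM in B23, against 30.1, 29.4 and 30.7 CPM in DMSO. All B23 libraries were thus lower than all DMSO libraries by a wide margin. The log2 difference was -0.79 (SE 0.046, adjusted p = 4.86e-14 in limma), and it ran from -1.04 to -0.65 over the alternatives.

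The step from 2-oxoglutarate to succinyl-CoA held the largest fall. OGDH, which encodes the decarboxylating first component of the 2-oxoglutarate dehydrogenase complex, lies on chromosome 7 from 44606572 to 44709066. It had 26.7, 25.5 and 25.7 CPM in the B23 libraries, against 88.8, 87.2 and 80.2 CPM in the DMSO libraries. The mean of OGDH was 26.0 ± 0.624 CPM in B23 and 85.4 ± 4.56 CPM in DMSO (SD, n = 3 each), 3.29-fold lower in B23 and with no overlap. On the log2 scale this was -1.70 (SE 0.042, limma adjusted p = 2.06e-21), and it ran from -1.95 to -1.59 over the alternatives.

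The alpha subunit gene of succinyl-CoA synthetase and the fumarase gene rose about equally. SUCLG1, which encodes the alpha subunit that both forms of the synthetase share, lies on chromosome 2 from 84423523 to 84460045. It had 128, 125 and 128 CPM in B23, against 58.6, 60.8 and 63.3 CPM in DMSO. The difference was 1.05 on the log2 scale (SE 0.036, adjusted p = 8.68e-19 in limma). FH, the fumarase gene on chromosome 1 from 241497603 to 241519761, had 89.0, 90.6 and 88.7 CPM in B23, against 42.7, 43.7 and 45.2 CPM in DMSO. FH stood 2.04-fold higher by mean CPM, or 1.02 on the log2 scale (SE 0.036, limma adjusted p = 2.11e-18), and in both genes the B23 libraries lay far above the DMSO libraries.

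The malate dehydrogenases, which work in the cycle and in the malate-aspartate shuttle, had small differences whose direction depends on the scaling. MDH2, the mitochondrial enzyme on chromosome 7 from 76048051 to 76067508, had 272, 259 and 274 CPM in B23, against 215, 214 and 208.5 CPM in DMSO. MDH1, the cytosolic enzyme on chromosome 2 from 63588609 to 63607197, had 159.9, 163 and 166 CPM in B23, against 127, 139 and 144 CPM in DMSO. The B23 libraries were the higher ones for both genes in the CPM as deposited. In limma the log2 difference was 0.33 for MDH2 (SE 0.034, adjusted p = 2.06e-09). For MDH1 it was 0.25 (SE 0.040, adjusted p = 2.68e-06). With quantile normalization both turned negative, to -0.21 for MDH2 and -0.20 for MDH1. With scaling to the listed-gene total MDH1 was at 0.0013 (adjusted p = 0.975 in limma), and its adjusted p spanned 3.64e-15 to 0.975 across all settings tried in limma, edgeR and DESeq2.

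**Figure D2:**
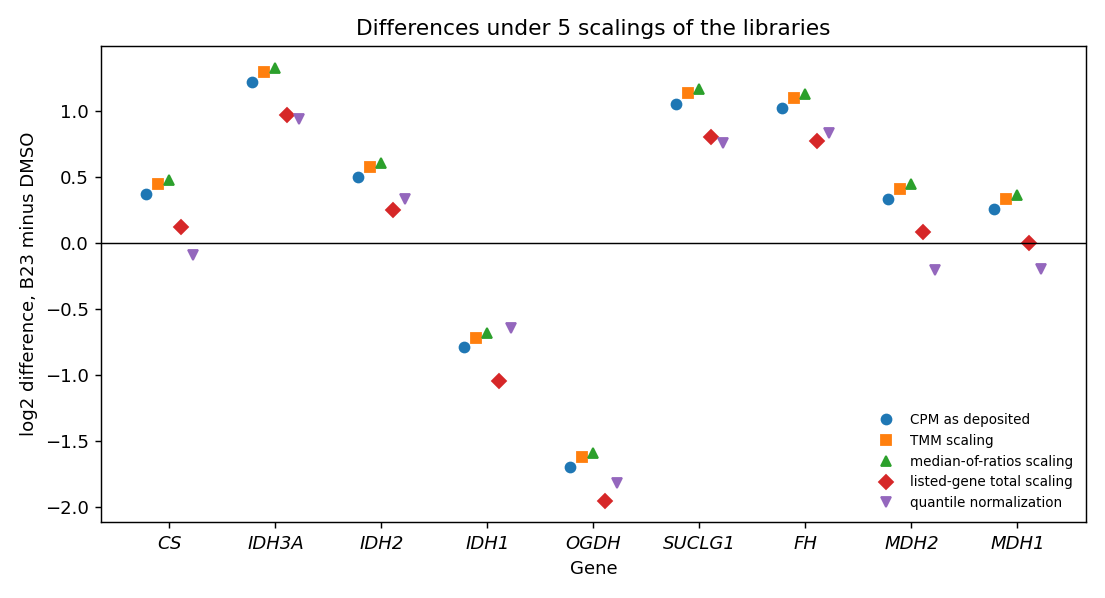
Log2 difference, B23 minus DMSO, of the 9 cycle enzymes under 5 scalings of the libraries, 1 symbol for each scaling. IDH3A, IDH2, SUCLG1 and FH stay above 0 and IDH1 and OGDH below 0 under all 5, while CS, MDH1 and MDH2 turn negative with quantile normalization.

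The scaling moved the whole transcriptome as well as the members. The median of all genes tested shifted by -0.25 with listed-gene total scaling and by 0.11 with median-of-ratios scaling, which estimates a size factor from gene-wise ratios. Relative to that median, MDH1 was 0.36 higher with the CPM as deposited and 0.35 higher with listed-gene total scaling. Relative to the median, OGDH was at -1.59 with the CPM as deposited and at -1.60 with listed-gene total scaling. Quantile normalization also changes the spacing of levels, and there CS was at -0.068 relative to the median. Relative to the same median, MDH1 was at -0.17 and MDH2 at -0.18 with quantile normalization.

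Exon number moved with the differences of coding genes as a whole. The longest coding transcripts of the 9 members have 9 to 23 exons in GENCODE 29. The 5529 tested coding genes in that class had a median log2 difference of 0.11, with 50.4% called higher and 38.7% called lower. The 301 tested coding genes with 1 exon had a median of -1.11. With the CPM as deposited, IDH1 and OGDH lay below, and the other 7 members above, the median of that class; with quantile normalization CS, MDH1 and MDH2 were negative too. The part of exon number in the members' differences was not tested.

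Sequence upstream of a RefSeq start is shown for IDH3A and FH, the risers of at least 1 whose window held no annotated exon. It is shown too for IDH1, which fell, at the 1 of its 2 listed start sites whose window held no annotated exon. The IDH3A and IDH1 windows lie within the gene spans given above, so they are not upstream of the whole gene as annotated. RefSeq promoter sequences on GRCh38.p14 were matched for 8 of 9 members, with 10 start sites in all. OGDH, the member with the largest fall, had no matched sequence and was not searched. The window ran from 250 to 51 bases before the start, 200 bases, and was searched on both strands for short motifs. The hypoxia core was searched only as ACGTG, a form that hypoxia-inducible factors bind. ACGTG lies within the E-box that MYC binds, which is CACGTG. The box that NF-Y binds is CCAAT, and the GC box that factors such as SP1 bind is GGGCGG. Motifs of NRF1, a regulator of mitochondrial genes, and of the estrogen-related receptors, regulators of oxidative metabolism, were searched too. Capitals mark the hypoxia core, the NF-Y box and the GC box in either orientation, and each sequence reads 5′ to 3′ on the strand of its gene.
IDH3A, chr15:78149112-78149311, plus strand: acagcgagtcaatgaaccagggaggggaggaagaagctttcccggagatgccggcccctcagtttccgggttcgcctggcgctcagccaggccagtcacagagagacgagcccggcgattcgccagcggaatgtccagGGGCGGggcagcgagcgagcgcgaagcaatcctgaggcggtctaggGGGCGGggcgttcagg
FH, chr1:241519806-241520005, minus strand: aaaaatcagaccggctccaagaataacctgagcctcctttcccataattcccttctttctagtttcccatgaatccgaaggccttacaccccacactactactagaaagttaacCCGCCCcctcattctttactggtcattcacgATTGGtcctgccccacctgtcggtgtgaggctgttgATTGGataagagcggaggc
IDH1, chr2:208254509-208254708, minus strand: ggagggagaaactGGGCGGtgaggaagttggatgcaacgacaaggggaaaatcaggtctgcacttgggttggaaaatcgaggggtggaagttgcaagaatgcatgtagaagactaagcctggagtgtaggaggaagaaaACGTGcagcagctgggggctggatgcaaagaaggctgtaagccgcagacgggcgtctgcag

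The hypoxia core, as ACGTG, was found in 1 of the 10 windows, at 1 of the 2 listed start sites of IDH1. The window of the other IDH1 start, not shown, held 2 NF-Y boxes and 3 GC boxes. Windows of all RefSeq promoters held ACGTG in 14.4% of 35116 cases. The NF-Y box was found in 4 of the members' 10 windows, against 27.4% of all windows, and the GC box in 5 of 10, against 35% of all windows. No member window held the E-box, which 4.51% of all windows held. None held the NRF1 or the estrogen-related receptor motif either, which 0.524% and 0.268% of all windows held. These matches describe the letters in the window, and a window without a match says only that these letters are not in it.

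The other enzymes of the cycle, a list of 12 genes, were also mostly higher. Of these 12, 9 were called higher and 3 lower, against the 39.6% and 49% over all genes tested, with a median log2 difference of 0.62, and only SUCLG2 turned its direction under any alternative, though not relative to the median of all genes. IDH3B, a partner subunit of IDH3A, had 95.3, 93.4 and 99.0 CPM in B23, against 42.1, 43.7 and 44.1 CPM in DMSO. IDH3B rose by 1.14 on the log2 scale (limma adjusted p = 3.81e-19), close to the 1.22 of IDH3A. IDH3G, the remaining subunit, rose by 0.80 on the log2 scale (SE 0.046, adjusted p = 3.14e-14 in limma), and it overlaps SSR4, which fell, on the opposite strand.

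**Figure D3:**
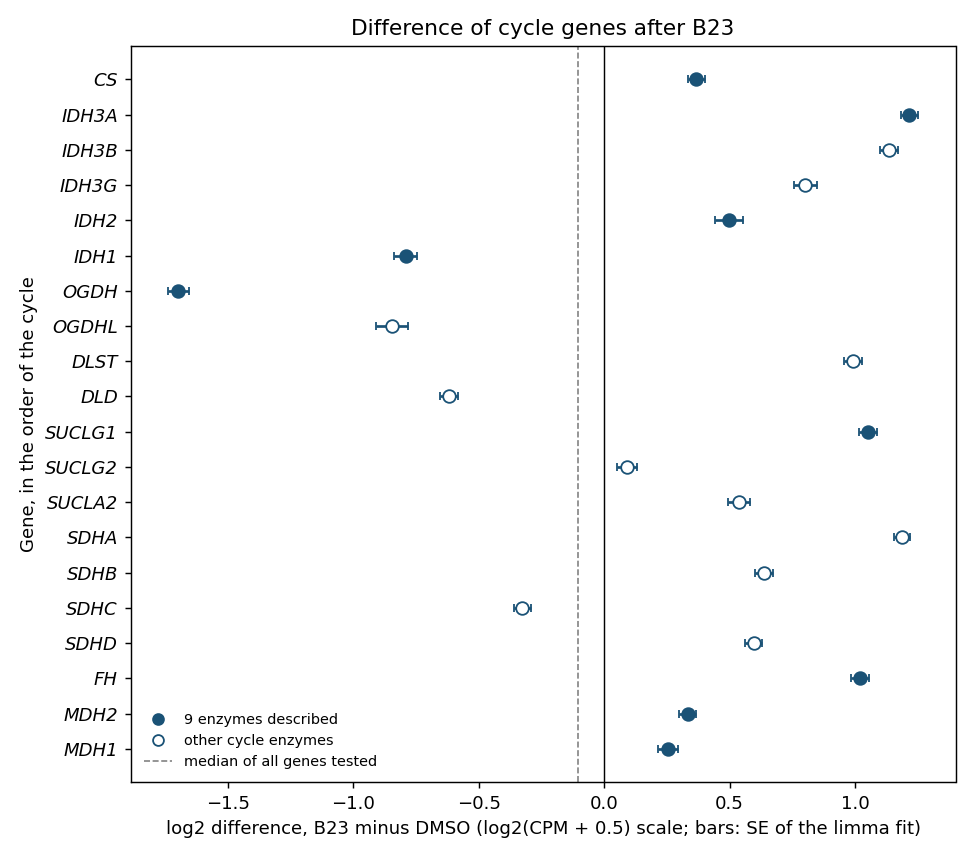
Log2 difference, B23 minus DMSO, of the 9 members (filled) and 11 other cycle genes (open) in the order of the cycle, with bars for the SE of the limma fit and a dashed line at the median of all genes tested, -0.10. The 2-oxoglutarate dehydrogenase genes OGDH, OGDHL and DLD lie to the left while DLST lies to the right at 0.99.

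Within the 2-oxoglutarate dehydrogenase complex the components moved in opposite directions. DLST, the succinyltransferase core, had 171, 171 and 174 CPM in B23, against 82.2, 86.8 and 89.6 CPM in DMSO. OGDHL, an OGDH-like gene, was at 8.04 ± 0.315 CPM in B23 and 14.9 ± 1.06 CPM in DMSO. DLD, the lipoamide dehydrogenase that this complex shares with the pyruvate dehydrogenase complex, was at 69.4 ± 2.31 CPM in B23 and 106.8 ± 0.794 CPM in DMSO. Thus DLST rose by 0.99 while OGDHL and DLD fell by 0.85 and 0.62 on the log2 scale, with limma adjusted p of 2.49e-18, 5.62e-12 and 2.52e-14. DLD overlaps LAMB1 on the opposite strand, which was at 44.2 ± 0.858 CPM in B23 and 92.7 ± 1.16 CPM in DMSO.

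The partner subunits of SUCLG1 rose less. SUCLA2, the beta subunit of the ATP-forming synthetase, was at 37.6 ± 0.843 CPM in B23 and 25.7 ± 1.07 CPM in DMSO, 0.54 on the log2 scale (SE 0.044, limma adjusted p = 2.65e-11). SUCLG2, the beta subunit of the GTP-forming synthetase, was at 39.7 ± 0.803 CPM in B23 and 37.2 ± 0.880 CPM in DMSO. Its log2 difference of 0.093 passed the test narrowly (adjusted p = 0.0329 in limma) and turned to -0.16 with listed-gene total scaling, which shifts the median of all genes by -0.25. Relative to that median, SUCLG2 was at 0.20 with the CPM as deposited, 0.19 with listed-gene total scaling and 0.078 with quantile normalization. By construction, only the value with quantile normalization could differ by much from that with the CPM as deposited. Its limma adjusted p rose to 0.123 when B23 replicate 3 was left out, to 0.117 without DMSO replicate 1 and to 0.0656 without DMSO replicate 2, and it spanned 5.18e-05 to 0.223 across all settings tried.

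Succinate dehydrogenase, which is also complex II of the respiratory chain, was uneven across its subunits. SDHA, the flavoprotein subunit, had 429, 424 and 431 CPM in B23, against 187, 189 and 187 CPM in DMSO. SDHA rose by 1.19 on the log2 scale (limma adjusted p = 1.28e-20). SDHB, the iron-sulfur subunit, rose by 0.64 and SDHD, a membrane anchor, by 0.60 on the log2 scale (limma adjusted p of 3.01e-14 and 6.55e-14). SDHD overlaps TIMM8B on the opposite strand and AP002884.3 on the same strand. SDHC, the other membrane anchor, was lower, at 70.5 ± 1.44 CPM in B23 and 88.5 ± 1.91 CPM in DMSO, with a log2 difference of -0.33 (adjusted p = 4.64e-09 in limma).

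Ratios of partner genes within a library do not depend on a single factor that scales a library. A set of 8 ratios was compared over the 6 libraries with a two-sided exact permutation test, in which 3 libraries against 3 can give no p below 0.1. The ratio of OGDH to DLST was 0.156, 0.149 and 0.148 in B23, against 1.08, 1.00 and 0.896 in DMSO, 6.57-fold lower in B23 by mean ratio. The ratio of IDH1 to IDH2 was 0.236, 0.265 and 0.248 in B23, against 0.684, 0.597 and 0.579 in DMSO, 2.48-fold lower by mean ratio. The ratio of SUCLG1 to SUCLG2 was 3.20 ± 0.0637 in B23 and 1.64 ± 0.0257 in DMSO (SD, n = 3 each). For these ratios and those of SUCLG1 to SUCLA2, IDH3A to IDH3B and IDH3A to IDH3G, the groups did not overlap and the exact p was 0.1 (0.133 adjusted over the 8 ratios).

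Size separated these ratios more than the test could. IDH3A to IDH3B was 1.35 ± 0.050 in B23 and 1.28 ± 0.00959 in DMSO, so those subunits rose nearly in step. IDH3A to IDH3G was 3.28 ± 0.143 in B23 and 2.47 ± 0.155 in DMSO, and SUCLG1 to SUCLA2 was 3.38 ± 0.107 in B23 and 2.37 ± 0.0167 in DMSO. The ratio of MDH1 to MDH2 was 0.609 ± 0.0212 in B23 and 0.644 ± 0.0508 in DMSO, with overlapping groups and an exact p of 0.3 (0.3 adjusted). CS to ACLY, the cytosolic enzyme that splits citrate, was 0.472 ± 0.0163 in B23 and 0.516 ± 0.0299 in DMSO, with overlap and an exact p of 0.2 (0.229 adjusted).

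**Figure D4:**
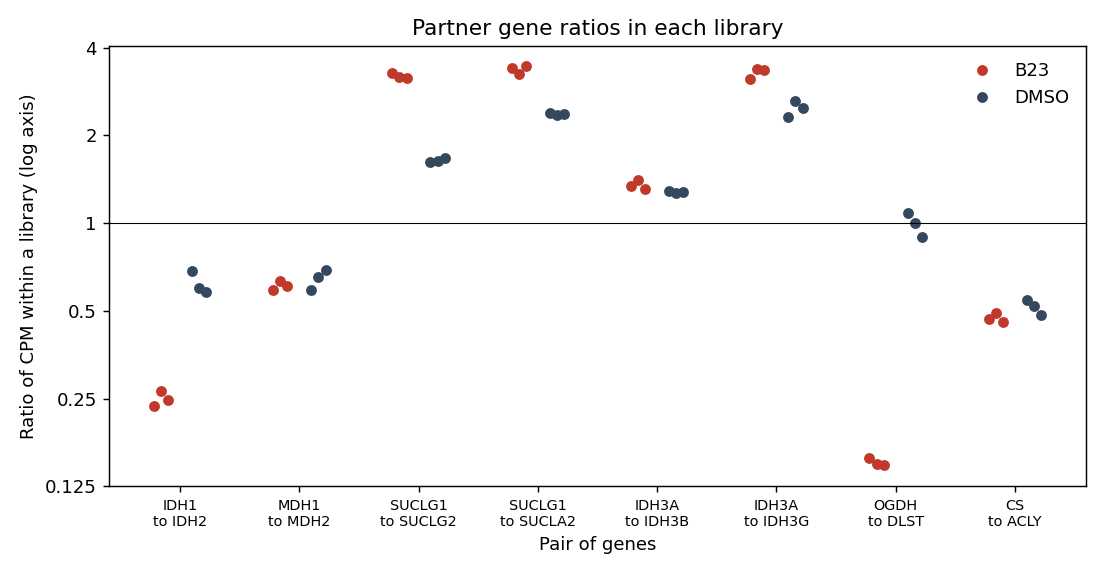
Ratio of CPM of 8 pairs of genes within each library, on a log axis, for the 3 B23 libraries (left of each pair) and the 3 DMSO libraries (right). OGDH to DLST and IDH1 to IDH2 are lower in all B23 libraries, SUCLG1 to SUCLG2 is higher in all, and MDH1 to MDH2 and CS to ACLY overlap.

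Levels between members were compared per length, as recovered reads per kb of exon, scaled to each library's recovered reads (RPKM). MDH2 had the highest level in both groups, at 82.3 ± 2.19 in B23 and 77.8 ± 1.70 in DMSO (SD, n = 3 each). Since this scale uses the listed-gene total, levels are compared within a group. In B23 the order was MDH2, FH, MDH1, SUCLG1, CS, IDH2, IDH3A, OGDH and IDH1, and no neighbours in that order overlapped. In DMSO it was MDH2, MDH1, CS, FH, IDH2, OGDH, SUCLG1, IDH3A and IDH1, where CS and FH overlapped, as did IDH2 and OGDH. OGDH made up 1.94% of the summed level of the 9 members in B23 and 8.63% in DMSO, and IDH1 made up 1.42% in B23 and 3.35% in DMSO. The order depends on the length used. With the length of the longest coding transcript in place of all exons, 1 of 9 members, MDH2, kept its place in B23 and 6 of 9 in DMSO. The share of FH in the summed level was 16.2% in B23 and 10.8% in DMSO with all exons, and 10.3% in B23 and 6.89% in DMSO with the coding transcript. There OGDH and not IDH1 was lowest in B23, at 6.95 ± 0.182 against 7.88 ± 0.247 for IDH1.

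Genes that feed the cycle or draw on it were mixed. Of 16 genes for entry and side reactions 15 were tested, and 10 were called higher and 5 lower, against 39.6% and 49% of all genes tested, with a median log2 difference of 0.23. ME1, the cytosolic malic enzyme, and GOT2, the mitochondrial aspartate aminotransferase, rose by 0.82 and 0.59 on the log2 scale. PCK2, the mitochondrial enzyme that makes phosphoenolpyruvate from oxaloacetate, was at 18.3 ± 0.777 CPM in B23 and 37.9 ± 2.08 CPM in DMSO. PDHB and DLAT, subunits of the pyruvate dehydrogenase complex, fell by 0.46 and 0.29 on the log2 scale. PDHA1, another subunit of that complex, added after its values were seen, rose by 0.48 (limma adjusted p = 8.03e-12), and it overlaps MAP3K15 on the opposite strand. Leaving PDHA1 aside, the limma adjusted p of these 5 genes lay between 6.48e-16 for PCK2 and 3.72e-08 for DLAT. In this list 6 of the 15 genes, PC, ME2, GLUD1, ACO1, ACLY and D2HGDH, changed direction under at least 1 alternative. Relative to the median of all genes, 3 of them, PC, GLUD1 and D2HGDH, changed direction across the 5 scalings, each only with quantile normalization.

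Of 8 shuttle and carrier genes 5 were called higher, 2 lower and 1 was not called, against 39.6% higher and 49% lower over all genes tested, with a median log2 difference of 0.27. A share of 7 of 8 called in either direction is near the background of 88.6%. SLC25A1, the citrate carrier, was at 66.6 ± 3.15 CPM in B23 and 32.0 ± 0.740 CPM in DMSO. MPC2, a pyruvate carrier subunit that overlaps DCAF6 on the opposite strand, and SLC25A22, a glutamate carrier, rose by 0.84 and 0.63 on the log2 scale. SLC25A13, an aspartate-glutamate carrier, was at 31.6 ± 0.440 CPM in B23 and 46.8 ± 1.23 CPM in DMSO. SLC25A11, the 2-oxoglutarate carrier of the malate-aspartate shuttle, was at 50.2 ± 3.27 CPM in B23 and 73.1 ± 2.30 CPM in DMSO, and it overlaps RNF167 on the opposite strand. The limma adjusted p of these 5 genes lay between 1.63e-17 for SLC25A1 and 5.39e-05 for MPC2. SLC25A10, called higher, and SLC25A12, not called, changed direction under at least 1 alternative. Neither did so relative to the median of all genes across the 5 scalings. Of these scalings, only quantile normalization could move a difference relative to the median by much.

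With the CPM as deposited, 4 hypoxia-linked genes, most of them of glucose and pyruvate use, differed more than any of the 9 cycle members. These 4 genes were listed with earlier results of these data known, so the comparison is only a description. The log2 differences were 3.97 for the mitophagy receptor BNIP3, 3.21 for the lactate dehydrogenase LDHA, 3.20 for the kinase PDK1, which restrains pyruvate dehydrogenase, and 1.80 for the glucose transporter SLC2A1. Their limma adjusted p lay between 8.24e-29 and 4.13e-23, and the largest rise of a cycle member was 1.22. OGDH had the largest fall of a member, -1.70. SLC2A1 differed less than OGDH with listed-gene total scaling (1.55 against -1.95) and with quantile normalization (1.49 against -1.82). Among 12052 other genes that averaged 5 CPM or more, the profile over the 6 libraries nearest to the mean profile of the 9 members was that of MOV10, followed by DNAJC8 and SUDS3. Their distances were 0.030, 0.032 and 0.033 on the log2 scale, and their log2 differences were 0.25, 0.24 and 0.23, against 0.25 for the mean profile. These genes were picked for that nearness, so the closeness of their differences follows from the choice. The mean profile averages members that ranged from -1.70 for OGDH to 1.22 for IDH3A, so it does not describe each member.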

How the data were processed

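RNA of 6 HEK293 libraries was made into libraries with a stranded mRNA kit, per the labels' protocols. The submitters' processing notes name STAR 2.6.1d, SAMtools, HTSeq, edgeR and hg38, without order or settings. No label or header names the annotation, strand setting, scaling method or filter on listed genes. The values were deposited by the authors as CPM, 1 column per library. Each column was whole multiples of the value of 1 read (100% of values within 0.001 reads), so reads could be recovered. Column sums ran from 890367 to 900113 CPM in B23 and 745216 to 753745 CPM in DMSO. Whether these sums reflect a scaling factor, reads in genes not listed, or both was not tested.

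Genes averaging 1 CPM or more were tested (14792, with 704 left out). The CPM as deposited, as log2(CPM + 0.5), were compared with limma 3.58.1 under R 4.3.3 with trend and robust empirical Bayes, two-sided, with Benjamini-Hochberg adjustment over all genes tested and a threshold of 0.05. Differences on this scale understate changes of low genes; folds are ratios of mean CPM or of mean within-library ratios. Symbols were matched to GENCODE 29 on GRCh38, the assembly of hg38, and all 15496 matched. Overlapping genes are named where their mean was at least 10% of that of the gene.

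The members and lists were chosen with earlier results of these data known. Named genes were the members, all other cycle enzymes, the 3 largest called differences in each direction in the other lists, BNIP3, LDHA, PDK1 and SLC2A1, and the 3 genes nearest in profile. Some genes that these rules name, overlapping genes among them, are counted in their lists but not reported here. Alternatives were edgeR 4.0.16 or DESeq2 1.42.0 fitted to recovered reads, which changes the model and the scaling together, a library omitted, TMM, median-of-ratios, listed-gene total or quantile scaling, where rescaling can also change which genes pass the filter, a pseudocount of 0.1 or 2, a filter at 5 CPM or none, plain empirical Bayes, a replicate block, and a threshold of 0.01.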

Additional observations from a re-analysis of the deposited data

How the results depend on the processing

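Of 339 values recomputed under the alternatives, 326 kept their direction and their side of the threshold or moved little. This count overstates stability, because part of these values could not move. A member's log2 difference is the same by construction with another filter, plain empirical Bayes, the replicate block or the stricter threshold. There only its call could change. The exact p of a ratio cannot fall below the threshold, so no ratio could change its side. Outside this count, differences relative to the median of all genes could hardly move between scalings except with quantile normalization. With quantile normalization CS, MDH1 and MDH2 reversed to -0.095, -0.20 and -0.21, the members called higher and lower numbered 4 and 5, and their median reversed to -0.095. Over all genes, lower genes made up 51.6% of the 12905 calls with that setting. With listed-gene total scaling MDH1 lost its call (0.0013, adjusted p = 0.975 in limma). The median of the members was 0.12 with listed-gene total scaling, 0.45 with TMM, 0.48 with median-of-ratios, 0.44 in edgeR and 0.47 in DESeq2. The cause of these shifts was not tested. Leaving out 1 library gave medians of 0.35 to 0.39 and changed no call of a member. EdgeR on the recovered reads called 13144 genes. With the replicate block 13106 genes were called, against 13111 without it. The members' log2 differences, with a median of 0.37, could not change, because each replicate number holds 1 library of each group. Deviations of same-numbered libraries correlated at 0.026, -0.070 and -0.062, so the numbers were not taken to pair the libraries. With coding transcript length 1 of 9 members kept its place in the B23 order and 6 of 9 in the DMSO order. The lowest depth of a member was 799 reads in a library.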
